A study of Mus musculus with 41 samples.

Results

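Trimethylation of lysine 9 and of lysine 27 on histone H3 (H3K9me3 and H3K27me3) are the 2 repressive marks mapped in these proliferating chondrocytes, the dividing cells of growing cartilage. They were compared on the autosomes in 6 libraries, 3 for H3K9me3 (replicates 2, 3 and 6) and 3 for H3K27me3 (replicates 2, 6 and 8), of 41 samples in the series, 30 of which have a list of called regions. Both sets came from the same kind of cells, sorted by flow cytometry from cartilage of mouse embryos at E13.5. All of these mice carried a Cre transgene driven by Col2a1 (Tg(Col2a1-cre)1Star) and a yellow fluorescent reporter in the Rosa26 locus (Gt(ROSA)26Sortm1(EYFP)Cos), so the cells are those in which Col2a1 sequences drove Cre. The immunoprecipitation and library kits were made for small numbers of cells. Nothing in the labels ties a library to its own litter, and the 3 libraries of a mark may come from the same pooled cells. The p-values therefore speak only to variation among the libraries themselves, part or all of which may be technical.

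H3K9me3 is written by enzymes such as SETDB1 and SUV39H, is bound by HP1 proteins, and is known from repeats, from clusters of zinc finger genes and from heterochromatin poor in genes. H3K27me3 is written by Polycomb repressive complex 2 and is known from CpG-rich starts of developmental genes that are silent in a given cell type. Textbook descriptions place the marks in separate compartments.

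The promoters of 6 genes show the sequence at starts with H3K9me3, H3K27me3 or both. Each is 300 bases around the annotated start, from the RefSeq promoter table for GRCm38.p6, on the minus strand of the chromosome and read 5′ to 3′, with every CG dinucleotide in capitals. Fpr-rs6, a formyl peptide receptor gene (chr17:20183048-20183347), and Vmn1r228, a vomeronasal pheromone receptor gene (chr17:20777452-20777751), lay in H3K9me3 only. Hoxa7 (chr6:52218524-52218823) and H2-T3, a non-classical MHC gene (chr17:36190102-36190401), lay in H3K27me3 only. Evx2 at the end of the Hoxd cluster (chr2:74659508-74659807) and Nkx2-5, a heart homeobox gene (chr17:26841516-26841815), lay in both.
Fpr-rs6: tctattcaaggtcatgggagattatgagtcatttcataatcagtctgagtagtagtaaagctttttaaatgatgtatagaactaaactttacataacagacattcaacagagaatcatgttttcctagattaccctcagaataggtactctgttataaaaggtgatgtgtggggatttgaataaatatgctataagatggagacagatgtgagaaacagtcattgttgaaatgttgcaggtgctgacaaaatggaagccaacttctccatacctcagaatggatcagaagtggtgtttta
Vmn1r228: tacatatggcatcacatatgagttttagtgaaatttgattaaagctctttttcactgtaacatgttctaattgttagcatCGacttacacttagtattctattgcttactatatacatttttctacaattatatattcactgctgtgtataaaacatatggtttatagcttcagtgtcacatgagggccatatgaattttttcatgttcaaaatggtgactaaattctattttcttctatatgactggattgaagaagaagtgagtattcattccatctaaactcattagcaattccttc
Hoxa7: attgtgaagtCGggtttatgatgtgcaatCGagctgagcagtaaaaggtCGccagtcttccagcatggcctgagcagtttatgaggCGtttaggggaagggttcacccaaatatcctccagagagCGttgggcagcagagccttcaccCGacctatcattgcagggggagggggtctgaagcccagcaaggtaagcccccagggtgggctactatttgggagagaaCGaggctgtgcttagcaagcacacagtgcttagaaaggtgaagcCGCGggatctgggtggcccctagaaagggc
H2-T3: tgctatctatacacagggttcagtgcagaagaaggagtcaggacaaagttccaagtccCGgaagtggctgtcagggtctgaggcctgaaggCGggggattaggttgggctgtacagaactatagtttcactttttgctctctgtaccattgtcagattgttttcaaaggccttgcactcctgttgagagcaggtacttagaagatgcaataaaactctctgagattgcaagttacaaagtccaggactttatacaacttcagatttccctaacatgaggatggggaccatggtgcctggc
Evx2: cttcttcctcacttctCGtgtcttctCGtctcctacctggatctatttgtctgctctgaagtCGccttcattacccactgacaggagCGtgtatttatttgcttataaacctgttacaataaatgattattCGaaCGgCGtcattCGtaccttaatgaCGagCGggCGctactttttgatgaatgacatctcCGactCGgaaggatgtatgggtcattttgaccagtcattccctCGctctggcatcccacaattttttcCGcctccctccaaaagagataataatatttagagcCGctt
Nkx2-5: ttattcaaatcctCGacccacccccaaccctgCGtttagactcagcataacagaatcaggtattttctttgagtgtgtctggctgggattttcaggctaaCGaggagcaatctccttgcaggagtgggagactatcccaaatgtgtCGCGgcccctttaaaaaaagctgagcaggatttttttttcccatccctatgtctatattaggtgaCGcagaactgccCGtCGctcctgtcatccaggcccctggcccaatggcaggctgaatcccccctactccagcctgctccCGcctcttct
Of 20085 starts with such a window, 57.9% held 10 or more CG. The Fpr-rs6 window held 0 and the Vmn1r228 window held 1, against 9 in Hoxa7, 2 in H2-T3, 16 in Evx2 and 9 in Nkx2-5, so 1 of the 6 passed 10.

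The H3K9me3 lists were long and scattered. They held 81980, 70336 and 140614 autosomal regions in replicates 2, 3 and 6 and covered 213, 177 and 218 Mb, against 20347, 14794 and 17644 regions and 74.7, 57.5 and 59.2 Mb in H3K27me3 replicates 2, 6 and 8. The autosomal extent was 2403.14 Mb. The lists hold coordinates only, on a grid of 800 bp, with no read numbers. The depth is therefore unknown, and covered length depends on how much was called. H3K9me3 replicate 6 stood apart from the other 2, with more and shorter regions. As a check of the cell label, H3K4me3 and H3K27ac of the same cells lay at the starts of 7 of 8 cartilage markers in all 3 libraries, the exception being Col2a1. H3K4me3 was at 0 at the endothelial genes Pecam1, Cdh5 and Tie1, at the blood genes Ptprc and Csf1r, at Krt5 and Krt14 of epidermis, and at Col10a1, Mmp13 and Ibsp, 3 of 6 markers of hypertrophic cartilage and bone. Of the same 6, Sp7 and Runx2 had H3K4me3 and H3K27ac in all 3 libraries. The nerve markers Snap25, Stmn2, Neurod1 and Pax6 had H3K4me3 in all 3 libraries, with 0 of 4 in H3K27ac in all 3. Single markers of other cells with H3K4me3 in all 3 libraries were Kdr of 4 for endothelium, Spi1 of 3 for blood, Myod1 of 5 for muscle and Epcam of 4 for epithelium. H3K27ac also lay at Kdr, Spi1 and Epcam in all 3 libraries, and the part of such cells in the results was not tested.

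H3K9me3 lay far from genes more often than H3K27me3, which sat at gene ends and in wider blocks. Of the covered length, 31.3, 28.0 and 24.8% of H3K9me3 lay over 100 kb from any protein-coding gene, against 11.8, 9.38 and 10.7% of H3K27me3, where the autosomes as a whole have 27.3%. Within 2 kb of a gene end lay 6.21, 6.94 and 7.85% of H3K9me3 and 20.3, 25.2 and 23.0% of H3K27me3, with 6.10% of the autosomes. The groups did not overlap on either measure. The difference was 17.4 percentage points for the share far from genes and -15.8 for the share near gene ends, each with a two-sided exact permutation p of 0.1 (adjusted p = 0.1 over 5 tests), the smallest that 3 against 3 libraries can give. Regions of 10 kb or wider held 17.9, 15.8 and 4.49% of H3K9me3 length against 33.1, 33.4 and 29.7% of H3K27me3 length (difference -19.4, exact permutation p = 0.1). This last difference turned to 8.23 points the other way (exact permutation p = 0.6) when only the widest regions of each list were kept, to the covered length of the shortest.

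Relative to its length over the autosomes, H3K9me3 far from genes was close to even on average, but its libraries differed in direction. Over 100 kb from genes, H3K9me3 replicates 2, 3 and 6 were at 1.15, 1.03 and 0.907 times the autosomal value. In the sequence farthest from genes (over 0.5 Mb) they were at 1.39, 1.16 and 0.857 times. The mean coverage of H3K9me3 was 1.03 and 1.13 times in these 2 kinds of sequence, against 0.389 and 0.132 times for H3K27me3. In gene bodies it was 0.754 times for H3K9me3 and 1.10 times for H3K27me3, and within 2 kb of gene ends 1.20 times for H3K9me3 and 3.9 times for H3K27me3. In 13371 bins of 100 kb with no gene, H3K9me3 covered 8.70, 6.89 and 8.36% and H3K27me3 covered 1.97, 1.36 and 1.49%. In 365 bins with 6 or more genes the values were 8.27, 6.78 and 10.5% for H3K9me3 and 10.4, 9.11 and 8.75% for H3K27me3. H3K9me3 was thus about level between the emptiest and the fullest bins, while each H3K27me3 library covered several times more of the fullest.

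Called in 100 kb bins, H3K9me3 was higher in 9976 of 22869 tested bins (43.6%) and H3K27me3 in 738 (3.23%), by limma with adjusted p under 0.05. With values scaled to each list's length the split was 5752 to 3064, and with lists of equal covered length 910 to 2551. Without 1 of the H3K27me3 libraries (replicates 2, 6 and 8 in turn) it was 2773, 2467 and 2408 bins higher in H3K9me3, and 280, 319 and 314 in H3K27me3. Without H3K9me3 replicate 3 the bins higher in H3K27me3 numbered 489, and without H3K9me3 replicate 6 they numbered 1280.

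The longest runs of bins higher in H3K9me3 lay on chromosomes 3, 1 and 2. The first, chr3:3000001-6900000, spans 3.9 Mb with 4 genes, among them the transcription factor gene Zfhx4, and had 26.0, 22.8 and 19.4% in H3K9me3 against 1.03, 0.948 and 1.13% in H3K27me3. The second, chr1:100300001-104100000, holds 1 gene, Cntnap5b of the neurexin superfamily, and had 44.7, 27.4 and 16.4% against 0.232, 0.379 and 0.211%. The third, chr2:86400001-90200000, is a cluster of olfactory receptor genes with 164 genes in all and had 30.1, 20.7 and 11% against 0.0421, 0 and 0.0421%. In each of the 3 runs every H3K9me3 library lay above every H3K27me3 library. The runs are made of bins called in these same libraries, so this separation adds no support. In the last 2 runs the H3K9me3 libraries differed by more than 2-fold among themselves.

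Runs higher in H3K27me3 were shorter. The longest, chr4:124800001-125800000, spans 1 Mb with 15 genes, among them Rspo1, a Wnt agonist, and Grik3, a glutamate receptor subunit, with 5.84, 2.72 and 10.6% in H3K9me3 against 33.6, 24.4 and 26.8% in H3K27me3. The next 4 tied at 0.5 Mb. They hold the T-box genes Tbx2 and Tbx4 on chromosome 11 (6.4, 6.24 and 11.8% in H3K9me3 against 29.9, 24.0 and 21.9% in H3K27me3), Foxd2, Foxe3 and Tal1 on chromosome 4 (7.52, 7.36 and 11.8% against 36.5, 33.3 and 32.0%), Scn4b and other genes on chromosome 9 (2.88, 1.76 and 2.88% against 14.2, 9.92 and 11.7%), and Tle3, a corepressor gene, also on chromosome 9 (5.76, 8.80 and 14.1% against 44.8, 33.9 and 32.0%). The groups did not overlap in any of these runs, which adds no support, since these runs too are made of called bins.

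The marks overlapped rather than excluded each other. For a pair of 1 H3K9me3 and 1 H3K27me3 library, the shared length was on average 4.04 times the product of their autosomal shares (3.40 to 4.62 over 9 pairs, which share libraries). Between pairs of H3K9me3 libraries the same ratio was 4.93 (4.10 to 6.17), and between pairs of H3K27me3 libraries 23.4. For H3K36me3, the mark of transcribed gene bodies, the mean ratio was 1.26 with H3K9me3 and 0.846 with H3K27me3. For H3K4me3, the mark of gene starts, it was 1.36 with H3K9me3 and 8.25 with H3K27me3. The product of shares takes the whole autosomal extent, sequence with few mappable reads included. In a bulk sample a stretch in both lists need not carry both marks in the same cell or on the same allele. Fewer cells carrying a mark and less of it per cell cannot be told apart.

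The shares of the lists differ in size. An H3K27me3 library covered on average 10.6% of the length of an H3K9me3 library (9.16 to 11.97%), and an H3K9me3 library covered 33.9% of an H3K27me3 library (28.3 to 40.9%). The Jaccard index, shared over combined length, averaged 0.260 within H3K9me3, 0.441 within H3K27me3 and 0.0877 between the marks. Within minus between was 0.263 (one-sided exact permutation p = 0.1 from 10 splits, adjusted p = 0.1), which is the lowest value that 3 libraries a mark allow.

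Stretches in all 3 libraries of a mark came to 53.9 Mb in 27245 regions for H3K9me3 and 32.7 Mb in 6971 regions for H3K27me3. Both marks lay on 7.51 Mb in 3084 stretches, which is 13.9% of the H3K9me3 length and 22.9% of the H3K27me3 length. Of the autosomes, only 0.0144 Mb was in all 18 region lists of these cells. The stretches with both marks were gene-near, with 36.8% of their length within 2 kb of a gene end, against 5.85% for H3K9me3 with no H3K27me3 and 29.7% for H3K27me3 with no H3K9me3. Over 100 kb from genes lay 4.36% of them, 23.6% of H3K9me3 alone and 7.43% of H3K27me3 alone. H3K4me3 covered 28.1, 32.8 and 17.4% of the stretches with both marks, 0.0975% on average of H3K9me3 alone and 16.2% of H3K27me3 alone. H3K27ac averaged 9.25%, 0.228% and 11.3% of the same 3 kinds of stretch, and H3K36me3 averaged 22.2%, 24.4% and 10.02%.

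From 0.8 kb upward, wider H3K27me3 regions lay in H3K9me3 for more of their length. In the 100 regions over 25.6 kb, H3K9me3 covered 69.8, 65.7 and 66.0%, whereas in the 2785 regions of 0.8 to 3.2 kb it covered 24.1, 23.3 and 36.6%. In the other direction, H3K27me3 covered 52.6, 56.2 and 50.1% of the 107 H3K9me3 regions of 12.8 to 25.6 kb and 13.1, 11.7 and 11.3% of the 12231 regions of 1 grid step. The plot of overlap by width shows both, and the widest H3K9me3 class there holds only 7 regions.

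**Figure D1:**
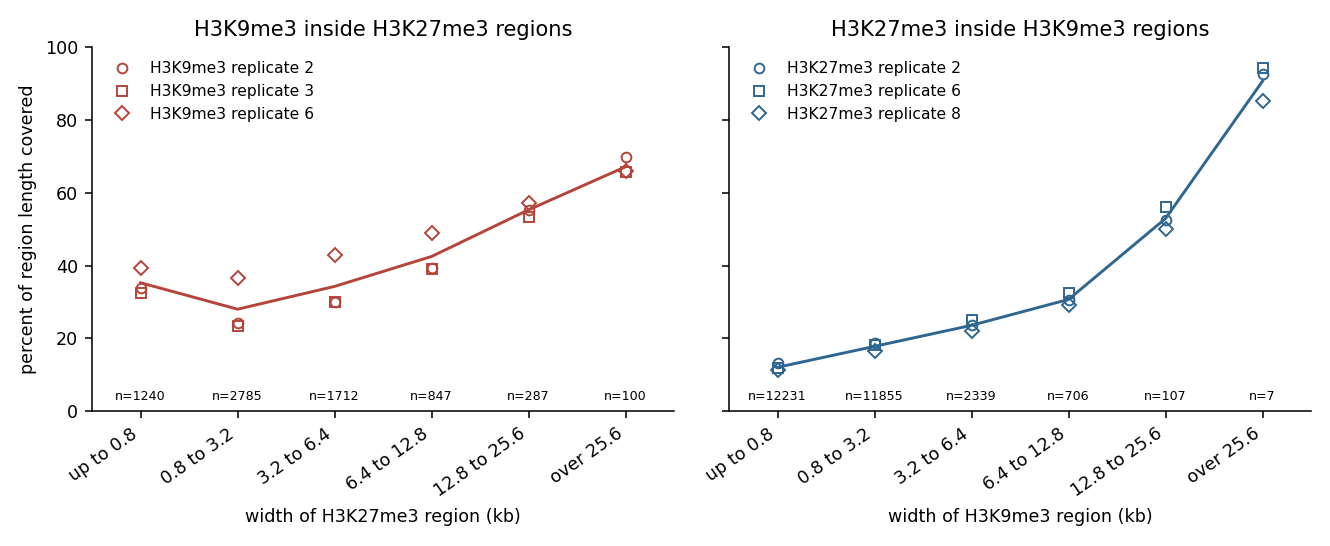
Percent of region length (y axis) that lay in the other mark, by width of the region in kb (x axis); left, H3K9me3 libraries over regions found in all 3 H3K27me3 libraries; right, H3K27me3 libraries over regions found in all 3 H3K9me3 libraries. Points are libraries, lines their mean and n the number of regions; the mean is 35.3% in the narrowest and 67.2% in the widest H3K27me3 class, and 12.1% in the narrowest and 53.0% in the class of 12.8 to 25.6 kb for H3K9me3.

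H3K9me3 was higher inside wide H3K27me3 regions than in the sequence around them. For 1018 regions of 8 kb or wider in all 3 H3K27me3 libraries, H3K9me3 replicates 2, 3 and 6 covered 10.4, 9.5 and 13.9% of the sequence 10 to 20 kb outside, 9.89, 8.91 and 13.9% of the 10 kb next to the region, 23.1, 21.5 and 26.6% of the first kb inside and 51.9, 51.1 and 59.2% of the fourth. H3K36me3 went the other way, at 16.8, 16.9 and 21.3% between 10 and 20 kb outside and 6.51, 11.2 and 13.52% in the fourth kb inside. Around 617 H3K9me3 regions of 8 kb or wider, H3K27me3 was already 20.8, 20.4 and 18.5% in the 10 kb outside, against 13.6, 13.8 and 11.5% farther out, and 37.4, 40.2 and 35.8% in the fourth kb. The plot of border profiles shows these values for each kb.

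**Figure D2:**
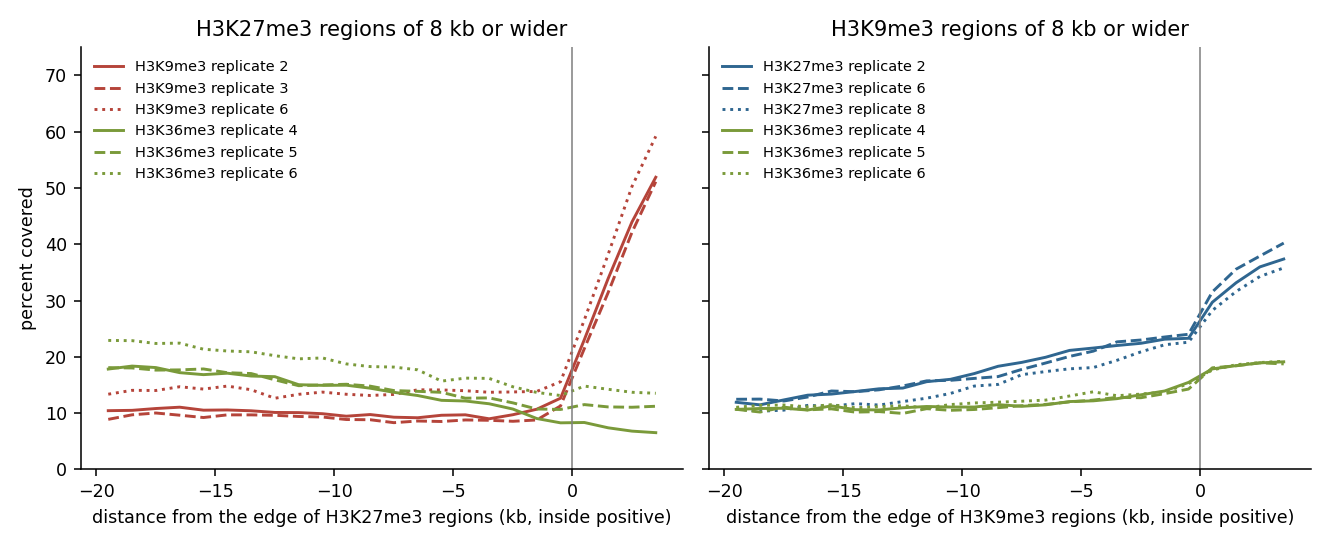
Percent covered by the other mark and by H3K36me3 (y axis) against distance in kb from the border of regions of 8 kb or wider (x axis, inside positive), for 1018 H3K27me3 regions (left) and 617 H3K9me3 regions (right). Each line is 1 library; H3K9me3 lines reach 51.1 to 59.2% in the fourth kb inside H3K27me3 regions, and H3K27me3 lines 35.8 to 40.2% inside H3K9me3 regions.

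Over genes, the value used was the percent of the gene, with 2 kb on each side, that lay in regions. A gene was put with 1 mark when at least 25% was covered in all 3 of its libraries and under 25% in all 3 of the other. Of 20560 autosomal protein-coding genes, 557 had H3K9me3 only (2.71%), 430 had H3K27me3 only (2.09%) and 513 had both (2.5%), while 16331 had neither and 2729 varied between libraries. Without H3K9me3 replicate 6 there were 843 with H3K9me3 only and 663 with H3K27me3 only. By limma, 2279 of 12062 tested genes were higher in H3K9me3 (18.9%) and 1118 in H3K27me3 (9.27%), with 3697 and 1659 at an unadjusted p under 0.05. In 4349 genes (21.2%) every H3K9me3 library lay above every H3K27me3 library, and in 1802 (8.76%) the reverse held. The split of calls was 1799 to 2863 with values scaled to list length and 419 to 2537 with lists of equal covered length. On a log2 scale the median difference of tested genes was 1.43, and 0.07 once scaled to list length, so directions below are given relative to the covered lengths as deposited. Without 1 H3K27me3 library the calls dropped to 352, 367 and 385 higher in H3K9me3 and 389, 405 and 511 higher in H3K27me3 (replicates 2, 6 and 8 left out in turn). Without H3K9me3 replicate 3 the genes higher in H3K9me3 numbered 3501.

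The kinds of gene were separate at the extremes. The 4 lists of smell, pheromone and taste receptors (1501 genes) had 210 genes in H3K9me3 only, 1 in H3K27me3 only and 0 in both. Of the rest, 795 had neither mark and 495 varied between libraries. The 6 lists of transcription factor families (Hox, other homeobox, forkhead, Sox, T-box and Gata, and bHLH fate genes, 291 in all) had 0 in H3K9me3 only, 28 in H3K27me3 only and 154 in both. A further 58 of these factor genes had neither mark and 51 varied. The receptors made up 37.7% of all genes in H3K9me3 only, and the factor families 30.02% of all genes in both. On chromosome 7, 178 of 2025 genes had H3K9me3 only (8.79%), against 1 of 774 on chromosome 15 (0.129%), where 34 had H3K27me3 only (4.39%).

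The classes differed in the active marks that the rule did not use. H3K4me3 covered at least 5% of the 4 kb around the gene start in 21.2% ± 0.207 of genes with H3K9me3 only (SD, n = 3 libraries), in 80.5% ± 4.26 of those with H3K27me3 only, in 89.1% ± 4.07 of those with both and in 65.9% ± 1.38 of all genes. H3K36me3 covered at least 25% of the body of 21.7% ± 0.104 of genes with H3K9me3 only, 25.5% ± 5.71 with H3K27me3 only, 25.5% ± 4.87 with both and 51.6% ± 2.58 of all genes. Genes with both marks thus resembled H3K27me3-only genes in these values. Their median length was 6.59 kb, against 10.05 kb for H3K9me3 only, 10.3 kb for H3K27me3 only and 17.6 kb for all genes.

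The base composition of gene starts divided in the same way. At 230 starts in all H3K9me3 and no H3K27me3 libraries the median number of CG in the 300 bases was 1, at 683 starts in all H3K27me3 and no H3K9me3 libraries it was 16, and at 456 starts in all 6 it was 20, with a median of 14 over all starts. The share with 10 or more CG was 3.48%, 72.2% and 85.3% for the 3 groups. H3K4me3 of all 3 libraries was found at 1.30%, 67.2% and 62.5% of them. Of 2193 starts with H3K27me3 in all 3 libraries, H3K9me3 replicates 2, 3 and 6 covered 33.7, 38.4 and 58.0%, so replicate 6 was higher here than the other 2.

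Part of the receptors of smell and pheromones had H3K9me3, and almost none had H3K27me3. Neither mark was found in 570 of 1099 olfactory receptors, 142 of 228 vomeronasal receptors type 1 and 55 of 121 of type 2. The median H3K9me3 coverage was 0% in all 3 libraries for olfactory and type 1 receptors. For type 2 it was 38.4, 22.5 and 13.6%. The 1099 olfactory receptor genes, which encode odorant receptors of nasal neurons, averaged 26.9, 19.9 and 10.6% covered in H3K9me3 and 1.18, 0.446 and 0.688% in H3K27me3. Of the 429 tested, 144 were higher in H3K9me3 and 3 in H3K27me3, and 112 of the 1099 had H3K9me3 only (10.2%, against 2.71% of all genes). H3K27me3 was near 0 in these families, so members entered the test almost wholly through H3K9me3, and counts among tested members are a description. The 228 vomeronasal receptors type 1 averaged 28.1, 24.4 and 15.51% in H3K9me3 and 0% in each H3K27me3 library, with 46 of 81 tested called and 44 in H3K9me3 only. The 121 vomeronasal receptors type 2 averaged 45.6, 41.6 and 26.1% against 0.511, 0.278 and 0.258%, with 58 of 88 called and 48 in H3K9me3 only. Without 1 H3K27me3 library the calls higher in H3K9me3 numbered 54 to 60 for olfactory receptors, 34 to 35 for type 1 and 32 to 34 for type 2 receptors. H3K9me3 replicate 6 was the lowest H3K9me3 library in all 3 families, and without it the olfactory calls numbered 243. These families hold near-identical copies, and how reads that fit several places were treated is not given in the sources used here, so values of single members are uncertain.

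Single members reached full coverage. Vmn1r64 (chr7:5883580-5884542) was covered 100% in all 3 H3K9me3 libraries and 0% in all 3 H3K27me3 libraries (difference 100, SE 5.34, limma adjusted p = 0.00092). Vmn1r228 had 100, 100 and 94.5% in H3K9me3, and Fpr-rs6 had 100% in all 3, both against 0% in H3K27me3 with the same adjusted p from limma. Olfr398 (100, 100 and 85.1%), Vmn2r61 (96.4, 96.4 and 91.1%) and the bitter taste receptor gene Tas2r104 (100, 100 and 83.7%) were at 0% in every H3K27me3 library. Each of these genes stayed called without any 1 of the 6 libraries, with limma adjusted p of at most 0.011. Vmn1r228 and Fpr-rs6 lie in a run of called bins at chr17:17900001-21100000, chosen here after its values were seen, with 84.0, 79.6 and 54.6% in H3K9me3 and 1.13, 1.5 and 0.45% in H3K27me3. The 2 olfactory receptors with the greatest difference toward H3K27me3 were Olfr95 (0, 53.7 and 16.2% in H3K9me3 against 100, 78.7 and 100%) and Olfr94 (0, 0 and 54.2% against 100, 62.0 and 92.3%), near the MHC on chromosome 17. Olfr95 lost the call without any 1 H3K27me3 library or H3K9me3 replicate 6, and Olfr94 without any 1 H3K27me3 library or H3K9me3 replicate 2 or 3 (limma adjusted p up to 0.0867 and 0.125).

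Some other families of tandem copies with functions outside cartilage also had many members in H3K9me3 alone, while others had few or none. H3K9me3 only was found in 0 of 33 major urinary protein and lipocalin genes, 0 of 28 prolactin genes and 0 of 27 kallikreins. It was found in 3 of 70 defensins and 1 of 105 keratin and keratin-associated genes. In the families described next, 9 of 28, 17 of 37 and 41 of 85 genes, in that order, had neither mark. H3K27me3 was low in these families too, so members entered the test mostly through H3K9me3. Counts among their tested members are therefore a description. Of 28 Ceacam and Psg genes, which encode cell adhesion proteins and placental glycoproteins, 13 had H3K9me3 only and 17 of 21 tested were higher in H3K9me3 (12 to 18 without 1 library), with means of 45.1, 48.6 and 44.6% against 1.44, 1.24 and 1.09%. Psg18 had 94.0, 98.2 and 94.0% in H3K9me3 and 0% in all H3K27me3 libraries (limma adjusted p = 0.00092). Of 37 secretoglobins, small secreted proteins, 9 had H3K9me3 only and 12 of 19 were called (10 to 15), with Scgb2b24 at 100% in all H3K9me3 libraries against 0, 13.1 and 0%. Of 85 Pramel, Oog, Obox, Zscan4, Tdpoz and Nlrp genes, many known from oocytes and early embryos, 22 had H3K9me3 only and 1 both, and Nlrp5 had 100, 98.7 and 88.0% against 0, 2.67 and 3.87%.

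Enzyme and immune gene families differed in the classes that their members fell into. Of 92 cytochromes P450, 17 had H3K9me3 only, 2 H3K27me3 only and 3 both. Cyp2a22, of a liver and nasal subfamily, had 86.7, 88.3 and 93.2% in H3K9me3 and 0% in H3K27me3, while Cyp26a1, which breaks down retinoic acid, had 54.7, 61.5 and 75.2% in H3K9me3 and 100, 100 and 95.7% in H3K27me3. The Cyp26a1 call (limma adjusted p = 0.0158) was lost without any 1 H3K27me3 library (adjusted p up to 0.0729). Skint5, of a family that shapes skin T cells, had 90.9, 87.8 and 59.97% against 2.28, 0.913 and 2.59%, and 8 of 19 Skint and butyrophilin genes had H3K9me3 only. The MHC list ran the other way, with 0 of 28 in H3K9me3 only, 5 in H3K27me3 only, 7 of 18 tested higher in H3K27me3 (4 and 3 without H3K27me3 replicates 2 and 8) and 1, H2-T24, higher in H3K9me3, a call lost without any 1 H3K27me3 library (limma adjusted p up to 0.0957). H2-D1, a classical class I gene (chr17:35263094-35267497), had 0, 0 and 19.04% in H3K9me3 against 91.7, 91.7 and 100% in H3K27me3 (difference -88.1, SE 7.63, limma adjusted p = 0.00182).

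Part of the Zfp genes carried H3K9me3, on average more toward their ends. Most genes of this list encode DNA-binding zinc finger proteins, many of them KRAB repressors. The list averaged 25.4, 24.6 and 23.7% in H3K9me3 and 8.77, 8.98 and 8.64% in H3K27me3, and 59 of 386 had H3K9me3 only, 0 H3K27me3 only and 25 both. A further 203 had neither mark and 99 varied between libraries. The median H3K9me3 coverage was 13.1, 10.3 and 13.6%. Of 282 tested, 137 were higher in H3K9me3 and 3 in H3K27me3, and these counts were 79 and 30 scaled to list length. Without H3K27me3 replicate 2, 6 or 8 the calls higher in H3K9me3 numbered 35, 43 and 42, and without an H3K9me3 library 134 to 161. Zfp616 (chr11:74060897-74087301) had 94.7, 92.1 and 66.8% in H3K9me3 against 0% in H3K27me3 (difference 84.5, SE 8.82, limma adjusted p = 0.00293). Zfp951 had 97.4, 96.1 and 88.4% against 9.94, 28.0 and 14.2% (difference 76.6, SE 7.09, limma adjusted p = 0.00201). Both stayed called without any 1 library.

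Along 324 of these genes with an annotated start, H3K9me3 covered 9.12, 8.81 and 14% of the first of 10 equal slices of the body and 40.4, 37.7 and 34.2% of the ninth. H3K27me3 was 5.01, 4.84 and 4.26% in the first slice and 15.0, 17.3 and 15.6% in the ninth. H3K36me3 covered 20.7, 24.0 and 26.3% of the first slice, 71.7, 61.8 and 65.1% of the fifth and 80.9, 72.3 and 76.1% of the ninth, and H3K9me3 23.8, 24.5 and 25.5% of the fifth. Over 16457 genes of all kinds H3K36me3 covered 15.2, 16.6 and 20.8% of the first slice and 48.4, 40.2 and 46.6% of the ninth. H3K4me3 sat at the start with 55.4, 56.7 and 47.4% of the first slice. Of the 59 Zfp genes with H3K9me3 only, 53 had H3K36me3 in all 3 libraries (89.8%), as had 22 of the 25 with both repressive marks (88.0%) and 301 of all 386 (78.0%). Zfp873 held the third widest stretch with both marks, chr10:82050401-82071200 (20.8 kb), where H3K36me3 covered 76.9 to 88.5% and H3K4me3, H3K27ac and H3K9ac 0%. The list of other zinc finger genes (72 members, 10 higher in H3K9me3 and 3 in H3K27me3) turned to 1 and 6 with lists of equal covered length.

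**Figure D3:**
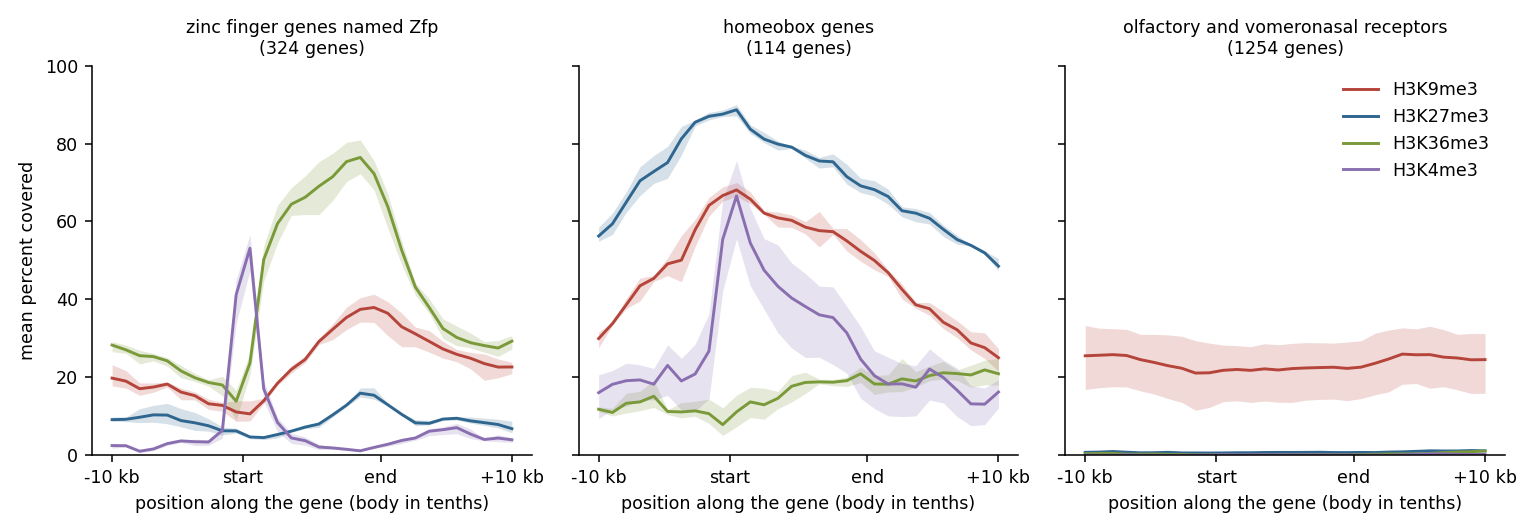
Mean percent covered (y axis) along genes (x axis, 10 kb before the start, the body in 10 slices and 10 kb after the end) by H3K9me3, H3K27me3, H3K36me3 and H3K4me3 for 324 Zfp genes, 114 homeobox genes and 1254 olfactory and vomeronasal receptors. Lines are the mean of 3 libraries and bands their range; H3K9me3 reaches 34.2 to 40.4% near the end of Zfp genes, 66.4 to 70.0% at the start of homeobox genes and 13.8 to 28.3% at the start of receptors.

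Homeobox genes were where both marks met, as the plot of gene profiles shows. The 131 homeobox genes outside the Hox clusters averaged 55.6, 54.5 and 56.6% in H3K9me3 and 73.3, 72.8 and 71.7% in H3K27me3. Of them, 0 had H3K9me3 only, 7 H3K27me3 only and 85 both; 33 of 126 tested were higher in H3K27me3 and 0 in H3K9me3, or 113 and 1 scaled to list length. Without 1 H3K27me3 library 15 to 17 were higher in H3K27me3, and without H3K9me3 replicate 6 there were 55. Profiles were drawn for 114 homeobox genes with an annotated start, Hox genes included. In the first slice of the body of these 114, H3K9me3 covered 67.9, 66.4 and 70.0% and H3K27me3 88.9, 90.0 and 87.1%. In kb 10 past the end the values were 21.6, 26.2 and 27.3% and 47.3, 50.5 and 47.8%. Both marks were lower past the end than at the start, and H3K9me3 was below H3K27me3 at both places. Of the 85 genes outside the Hox clusters with both marks, 2 had H3K36me3 in all 3 libraries and 77 had H3K4me3.

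The 10 genes with the highest lower mean of the 2 marks, ties going to the longer gene, were all at 100% in all 6 libraries. They are Evx2, Nkx2-5, Fezf1, Pdx1, Foxa2, Wnt1, Sox21, Nkx2-3, Olig2 and Tlx3, regulators of limb, heart, forebrain, pancreas, endoderm, midbrain, neural, spleen, oligodendrocyte and spinal cord development. Hoxc12 was also at 100% in all 6 libraries, so these 10 are not the only such genes. The widest stretch with both marks, chr19:43595201-43621600 (26.4 kb), holds Nkx2-3, with H3K36me3 and H3K27ac at 0% and H3K4me3 at 4.55 to 20.5%. Nkx2-5 and Fezf1 lie in stretches of 19.2 kb, and Olig2, Evx2 and Hoxb13 in stretches of 17.6 kb.

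The other families of transcription factors shared the pattern of H3K27me3 with a variable part of H3K9me3. Of 42 bHLH fate genes, which include determinants of nerve, muscle and limb cells, 19 had both marks and 6 H3K27me3 only, with means of 41.5, 44.3 and 46.6% in H3K9me3 and 72.5, 71.2 and 70.3% in H3K27me3. Of 35 tested, 17 were higher in H3K27me3 and 0 in H3K9me3, or 8 to 10 and 0 without 1 H3K27me3 library. Hand1, Hand2, Neurog1, Neurog2, Neurog3, Olig1, Olig2 and Olig3 were among those with both, while Twist1, Twist2 and Scx, of mesenchyme and tendon, were in neither. Of 21 T-box and Gata genes 11 had both and 2 H3K27me3 only, of 40 forkhead genes 14 and 4, and of 18 Sox genes 6 and 0. Among 59 Wnt, Fgf and Bmp ligands 8 had both and 9 H3K27me3 only, and 18 of 53 tested were higher in H3K27me3 and 1 in H3K9me3 (4 to 6 and 0 without 1 H3K27me3 library).

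Regulators of other lineages varied in how much H3K9me3 joined H3K27me3. Myf5, a muscle determination gene (chr10:107482908-107486927), had 0, 0 and 8.64% in H3K9me3 against 71.4, 71.4 and 59.9% in H3K27me3 (difference -64.7, SE 6.43, limma adjusted p = 0.0024). Its neighbour Myf6 had 0, 13.6 and 13.6% against 86.4, 87.7 and 94.0% (limma adjusted p = 0.00148). Foxc2, of mesenchyme and lymphatic vessels (chr8:121116171-121118895), had 0, 0 and 23.8% against 100, 100 and 96.6% (limma adjusted p = 0.00199), and all 3 of these calls held without any 1 library. Tal1 of blood cells had 62.0, 66.2 and 57.8% against 95.1, 86.8 and 95.1% (limma adjusted p = 0.0126), and Gata4 of heart and endoderm 49.1, 50.001 and 50.001% against 74.0, 86.6 and 87.6% (limma adjusted p = 0.0139). Tal1 and Gata4 were lost without 1 H3K27me3 library, with adjusted p up to 0.0681 and 0.0760 (replicates 2 and 8 for Tal1, 6 and 8 for Gata4).

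Of 25 nerve cell genes, 14 had both marks, 1 H3K27me3 only and 0 H3K9me3 only, with list means of 53.5, 50.4 and 48.4% in H3K9me3 and 62.2, 60.2 and 60.9% in H3K27me3. Neurog1 had 100, 100 and 94.3% in H3K9me3 and 100% in each H3K27me3 library, and Pax6 72.5, 72.5 and 67.7% against 89.2, 79.7 and 79.7%. The 5 calls toward H3K27me3 in this list numbered 0 without any 1 of the H3K27me3 libraries. Of 24 muscle genes, 4 had H3K27me3 only and 2 both, and 6 of 14 tested were higher in H3K27me3 (4 to 7 without 1 library). Of 23 epidermis and epithelium genes, 4 had H3K27me3 only and 3 both, with Krt1 at 17.1, 0 and 0% in H3K9me3 against 100, 100 and 85.3% in H3K27me3 (limma adjusted p = 0.00195), while Krt5 was at 0% in all 6. Of 23 endothelial and blood genes, 1 had H3K9me3 only, the macrophage gene Adgre1, and 4 had both. Calls there were 2 higher in H3K9me3 and 1 in H3K27me3, which turned to 1 and 7 scaled to list length and 1 and 4 with equal covered length.

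**Figure D4:**
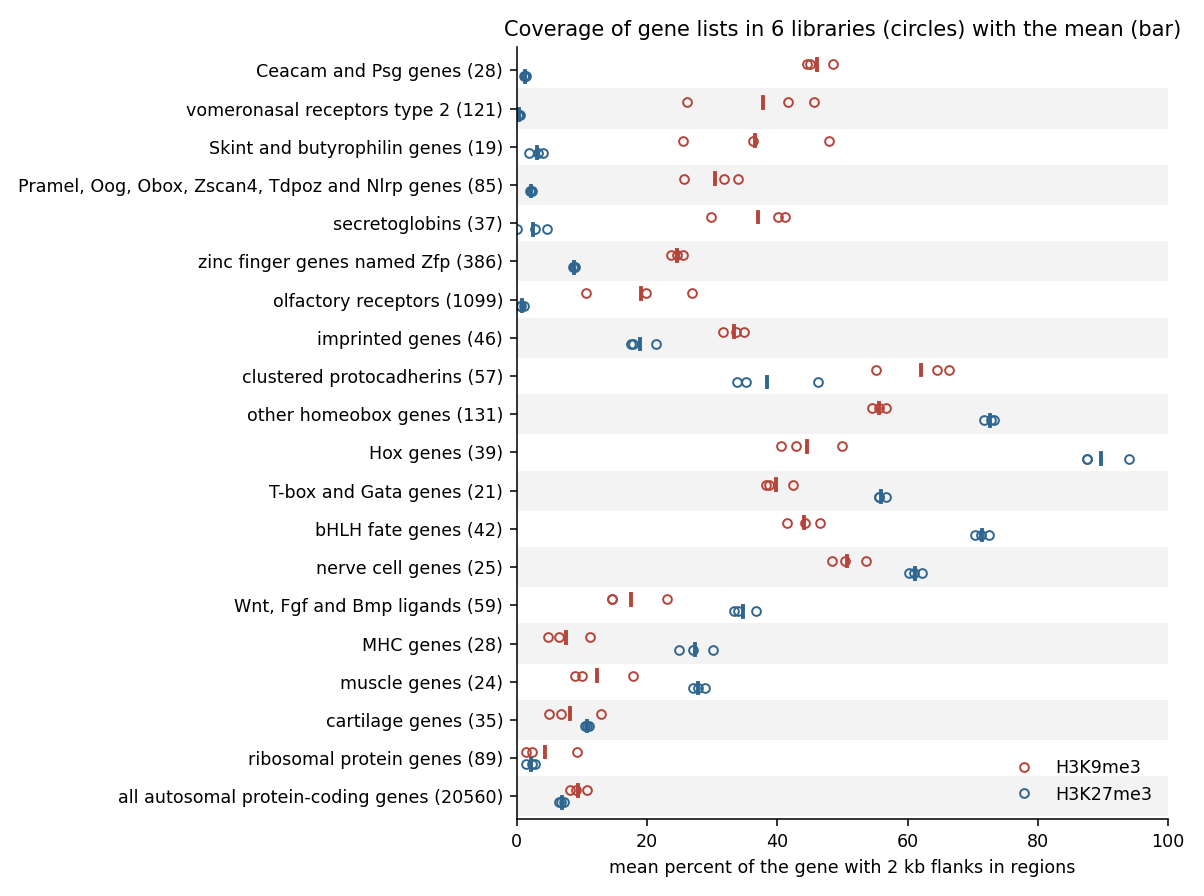
Mean percent of gene with 2 kb flanks in regions (x axis) for 19 gene lists and all genes (number of genes in brackets), with 1 circle per library and a bar at the mean, H3K9me3 above H3K27me3 in each row. Receptors and Zfp genes lie to the right for H3K9me3 and transcription factor families to the right for H3K27me3; calls turned direction when scaled to list length for protocadherins (19 and 0 as deposited, 0 and 23 scaled, higher in H3K9me3 and in H3K27me3) and imprinted genes (17 and 1, then 5 and 7).

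The Hox genes, which set position along the body and limb axes, were covered by H3K27me3 over most of their length, with Hoxa3, Hoxa4 and Hoxa5 the lowest, and by H3K9me3 to an extent that varied between clusters. The 39 genes averaged 42.8, 40.6 and 49.98% in H3K9me3 and 87.6, 94.0 and 87.6% in H3K27me3, and 0 had H3K9me3 only, 9 H3K27me3 only and 19 both. Of 38 tested, 22 were higher in H3K27me3 and 0 in H3K9me3 (15 to 24 and 0 without 1 library). Hoxa7 had 0% in all H3K9me3 libraries and 100% in all H3K27me3 libraries (difference -100, SE 5.34, limma adjusted p = 0.00092), and Hoxc6 (chr15:102998226-103011882) 0% against 100, 100 and 98.4% (difference -99.5, SE 5.35, limma adjusted p = 0.00092). Hoxa4 was at 0% in all 6.

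The extent of H3K9me3 differed between clusters and along them. All 9 Hoxd genes on chromosome 2 had both marks, with cluster means of 74.9, 76.7 and 81.7% in H3K9me3 and 97.0, 100 and 99.8% in H3K27me3. On chromosome 11, 2 of 10 Hoxb genes had both and 4 H3K27me3 only, with 20.1, 18.4 and 37.8% in H3K9me3 and 96.6, 93.3 and 85.7% in H3K27me3. Hoxa (chromosome 6) had 3 of 11 with both and Hoxc (chromosome 15) 5 of 9. By gene number, a split chosen after the values were seen, all 12 genes numbered 10 to 13 had both marks (90.9, 85.7 and 83.9% in H3K9me3 and 100% in each H3K27me3 library), while of 27 genes numbered 1 to 9, 7 had both and 9 H3K27me3 only (21.5, 20.6 and 34.9% in H3K9me3 and 82.1, 91.3 and 82.0% in H3K27me3). H3K36me3 lay in all 3 libraries on 5 of the 9 Hox genes with H3K27me3 only, against 0 of the 19 with both. Neighbouring Hox genes share regions and are not independent.

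**Figure D5:**
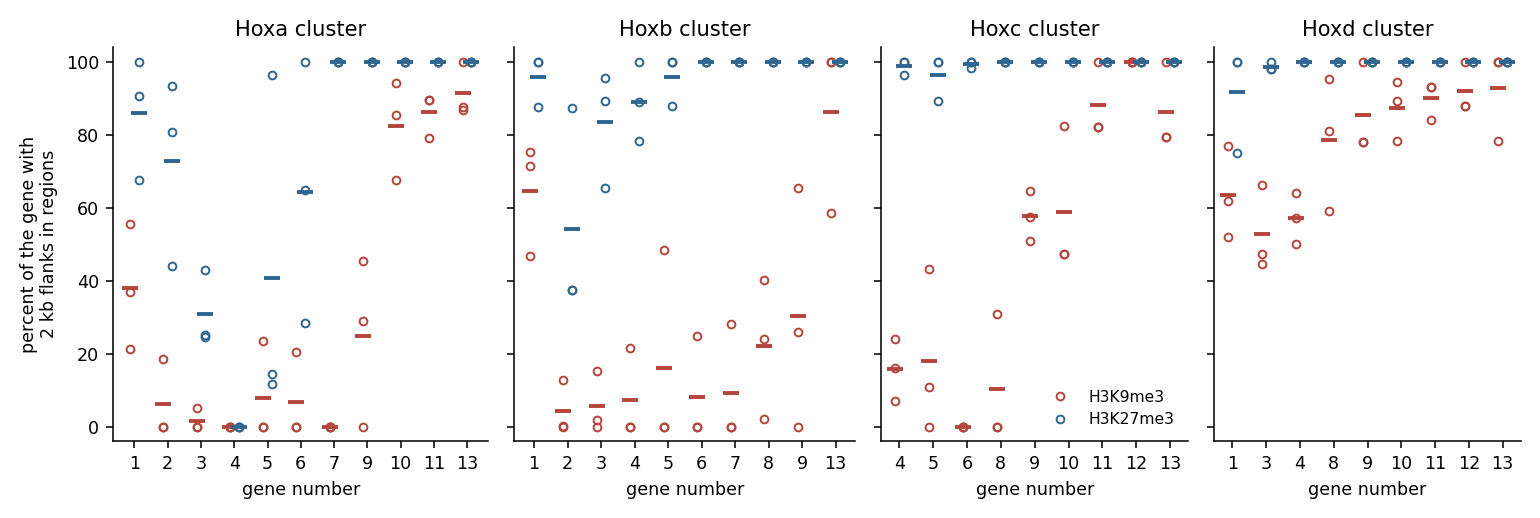
Percent of each Hox gene with 2 kb flanks in regions (y axis) by gene number (x axis) in the 4 clusters, with 1 circle per library and a bar at the mean, H3K9me3 left of H3K27me3. H3K27me3 is near 100% over most genes, while H3K9me3 means lie between 59.0 and 100% for numbers 10 to 13 and from 0% upward for lower numbers.

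Clustered protocadherins, neuronal adhesion genes in tandem arrays on chromosome 18, were covered by both marks. The 57 genes averaged 66.3, 64.4 and 55.2% in H3K9me3 and 46.2, 35.2 and 33.9% in H3K27me3, with 7 in H3K9me3 only, 0 in H3K27me3 only and 25 in both. The calls were 19 higher in H3K9me3 and 0 in H3K27me3 (2 to 5 without 1 H3K27me3 library, 11 without H3K9me3 replicate 3 and 33 without replicate 6), but 0 and 23 scaled to list length. Pcdhb4 had 100, 100 and 79.3% in H3K9me3 against 0, 22.6 and 20.7% in H3K27me3 (limma adjusted p = 0.00501). In the second widest stretch with both marks, 22.4 kb over the Pcdhg genes, H3K36me3 covered 96.4 to 100%.

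Imprinted genes, expressed from 1 parental allele, fell on both sides. Of 46, 6 had H3K9me3 only (Grb10, Mcts2, Peg12, Peg3, Plagl1 and Snrpn), 0 had H3K27me3 only and 8 had both (Cdkn1c, Dio3, Igf2, Mest, Nap1l5, Nnat, Phlda2 and Zdbf2). Calls were 17 higher in H3K9me3 and 1 in H3K27me3, or 5 and 7 scaled to list length. Without 1 H3K27me3 library 1 to 3 were higher in H3K9me3. Peg12 had 100, 86.3 and 48.2% in H3K9me3 against 0% in H3K27me3 (limma adjusted p = 0.0134, up to 0.0563 without 1 H3K27me3 library). It lies in a run of called bins at chr7:59600001-63000000 with Snrpn, Ndn and Magel2, chosen here after its values were seen, where H3K9me3 covered 69.7, 62.7 and 35.9% and H3K27me3 0.776, 0.518 and 0.376%. Igf2, a fetal growth factor, had 35.99, 39.98 and 51.95% in H3K9me3 against 67.9, 71.9 and 71.9% in H3K27me3 (limma adjusted p = 0.0270, up to 0.114 without 1 H3K27me3 library).

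The 35 cartilage genes averaged 6.87, 4.91 and 12.9% in H3K9me3 and 10.8, 10.5 and 11.2% in H3K27me3, and the groups overlapped. By limma 2 of 24 tested were higher in H3K9me3 and 3 in H3K27me3, where all tested genes had 18.9 and 9.27%. Without 1 H3K27me3 library the cartilage calls were 0 and 1 to 2. These values average over the gene. In the 4 kb window at the gene start, 0 of 13 tested were higher in H3K9me3 and 5 in H3K27me3 (median difference -49.0 points). Over all genes the same window gave 530 and 1526 of 6278 tested (median difference -17.1 points). The turn toward H3K27me3 at starts was thus not particular to cartilage genes. By the rule over the whole gene, 0 of the 35 had H3K9me3 only. Another 2 had H3K27me3 only (Chadl and Snorc) and 2 had both (Comp and Matn4), with 27 in neither, where 79.4% of all genes had neither. Acan, the main proteoglycan, had 0, 0 and 13.3% in H3K9me3 against 12.1, 7.25 and 6.03% in H3K27me3 (limma adjusted p = 0.444). For values at starts, the most covered annotated start was taken in each library, so the libraries need not share 1 start. In the 4 kb around it, Acan had 0, 0 and 79.4% in H3K9me3 against 100, 100 and 99.4% in H3K27me3. Sox9, the master regulator of chondrocytes, had 0, 1.64 and 16.8% against 0% (limma adjusted p = 0.269). Taken at starts in the same way, the Sox9 values were 0, 3.92 and 25.2% in H3K9me3 against 0% in H3K27me3. Comp, cartilage oligomeric matrix protein, had 51.1, 44.7 and 64.4% in H3K9me3 and 61.1, 67.5 and 63.9% in H3K27me3. Nkx3-2, an early chondrocyte regulator (chr5:41761483-41764220), had 47.5, 0 and 19.6% against 100% in all 3 H3K27me3 libraries (difference -77.6, SE 12.001, limma adjusted p = 0.0102).

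Col2a1, which encodes type II collagen (chr15:97975602-98004724), had 20.3, 17.9 and 37.2% in H3K9me3 and 17.9% in each H3K27me3 library (limma adjusted p = 0.373). In each of the 6 libraries, the 4 kb around its most covered annotated start were covered 100%. That start was taken per library, so both marks need not lie on the same start. The transgene carries Col2a1 sequence, so values at the start of Col2a1 cannot be told apart from those of the transgene. Of the genes that mark later cartilage and bone, Col10a1 had 0, 0 and 7.20% in H3K9me3 and 0% in H3K27me3, Mmp13 was at 0% in all 6, Runx2 had 1.73, 2.23 and 7.68% against 6.44, 6.20 and 6.20% (limma adjusted p = 0.383), and Ihh 7.72, 14.3 and 0% against 14.3% in each (limma adjusted p = 0.212). Phospho1, a phosphatase of mineralisation, had both marks, with 41.2, 61.9 and 34.4% against 94.0, 94.0 and 100% (limma adjusted p = 0.0115, up to 0.0512 without H3K27me3 replicate 2 or 8).

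Of 24 housekeeping genes 22 had neither mark, as had 73 of 89 ribosomal protein genes and 32 of 34 histone genes, where 79.4% of all genes had neither, and 0 were in H3K9me3 only, H3K27me3 only or both. The name pattern of the ribosomal list also took kinase genes, and both of its calls toward H3K27me3, Rps6ka4 and Rps6kl1, are such genes. Germline genes, often silenced in the body, had 46 of 54 in neither and the rest varied between libraries. Of 34 tested, 4 were higher in H3K9me3 and 0 in H3K27me3, which turned to 0 and 4 with equal covered length, and 0 and 0 without 1 H3K27me3 library.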

How the data were processed

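The deposited files hold region coordinates only, with no score or read number per region. Per the submitters' processing notes the build was mm10 (GRCm38) and FastQC and Picard were used; for the aligner, region caller, use of IgG libraries and treatment of multi-mapped reads, details were not given in the sources used here. The 7 IgG libraries of these cells were not analysed here. Sorted proliferating chondrocytes gave 3 H3K9me3 and 3 H3K27me3 lists. H3K4me3, H3K9ac, H3K27ac and H3K36me3 lists served as context.

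From the regions deposited by the authors, the percent of each gene with 2 kb flanks, and of each 100 kb bin, lying in regions was computed (Python 3.11.15, numpy 2.4.6, pandas 2.3.3, scipy 1.17.1, matplotlib 3.10.9), for 20560 autosomal protein-coding genes of the RefSeq table (GRCm38.p6); sequence before 3 Mb was left out. Genes or bins covered in at least 2 of 6 libraries were tested with limma 3.58.1 (R 4.3.3; trend, robust, Benjamini-Hochberg threshold 0.05) over all features. In data simulated for 12062 genes with 200 shifted by 60 points, 91% of the shifted genes were recovered. There were 0 false calls among the genes not shifted. Smaller shifts were not simulated, so the recovery of differences near the median of 3.33 points over tested genes is unknown. Library values were tested by exact permutation.

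Named genes were the 8 called genes with the greatest difference in each direction, up to 2 called genes per list and direction, 10 genes with the highest lower mean of both marks, 7 cartilage genes and the 3 longest runs of called bins each way. Ties between genes went to the longer gene. The text gives those that bear on a statement, and members of lists outside this rule (Olig1, Neurog1, Pax6, Comp and others) were chosen after their values were seen. Members and lists were chosen with earlier results of these data known. Alternatives were equal covered length, scaling, other windows, filters, thresholds and leaving out each library.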

Additional observations from a re-analysis of the deposited data

How the results depend on the processing

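Library differences kept their direction when each library was left out in turn: covered length 131 to 152 Mb, share in wide regions -22.0 to -15.2 points, share far from genes 15.8 to 19.06, share near gene ends -17.1 to -14.6, Jaccard within minus between 0.211 to 0.328 and overlap over the product of shares 3.87 to 4.22. With lists of equal covered length the difference in wide regions reversed to 8.23 points and the overlap ratio was 7.26; with regions of 1 grid step dropped the ratio was 4.67. With equal covered length, genes with H3K9me3 only numbered 259, with H3K27me3 only 747 and with both 258. At a threshold of 10% H3K9me3-only genes numbered 999 and genes with both 926, and at 50% they numbered 328 and 265. With 2 of 3 libraries sufficing they were 1085 for H3K9me3 only and 989 for H3K27me3 only, and with the authors' intersected lists 939 for H3K27me3 only. Leaving out a library gave 569 to 843, 463 to 663 and 521 to 612 for H3K9me3 only, H3K27me3 only and both.

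Genes higher in H3K9me3 numbered 419 with equal covered length, 3727 on the log2 scale, 635 with no filter, 530 in a window at the gene start, and 352 to 3501 with a library left out. Genes higher in H3K27me3 numbered 2537 with equal covered length, 2863 when scaled to list length and 455 with no filter. They numbered 1526 in a window at the gene start and 389 to 1649 with a library left out. Bins higher in H3K9me3 numbered 910 with equal covered length, 5752 scaled, and 2408 to 11288 with a library left out, and bins higher in H3K27me3 2551 with equal covered length, 3064 scaled, 430 in bins of 200 kb, and 280 to 1280 with a library left out. Among named genes 3 turned sign: Zkscan7 (-5.03 with equal covered length), Fgf14 (-0.74 and, at the gene start, -63.0) and Grik2 (-0.35 and -53.3). Of 105 named genes called, 50 stayed called without any 1 library, 55 were lost without at least 1 H3K27me3 library and 18 without at least 1 H3K9me3 library.

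Replicates 2 and 6 occur in both marks, and the labels do not say whether a shared number means shared cells. Correlations of coverage deviations between 2 different marks cannot settle this, since cells in common need not make the marks deviate together. Deviations of same-numbered libraries correlated at -0.0543 and -0.0744 over bins, against -0.0363 to 0.0688 for other pairs. With these 4 libraries and a replicate block, limma called 0 genes and 0 bins in either direction (2079 and 870 genes, 6672 and 369 bins at an unadjusted p under 0.05, higher in H3K9me3 and in H3K27me3), and the smallest exact p was 0.5. Depth limits cannot be given, since the lists hold no read numbers. The causes of these changes were not tested.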

Other observations

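Chromosome X was left out of the comparisons. There H3K9me3 covered 24.6, 19.3 and 16.0 Mb in replicates 2, 3 and 6, and H3K27me3 covered 17.9, 6.06 and 8.98 Mb in replicates 2, 6 and 8. The H3K27me3 libraries differed more among themselves on X than on the autosomes, where replicate 2 covered 74.7 Mb and the other libraries 57.5 and 59.2 Mb.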
